A study of Mus musculus with 1307 samples.

Results

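A set of 10 genes that fill, hold and empty the calcium store of the sarcoplasmic reticulum was followed across single cells of the mouse heart. They were chosen by symbol: the calsequestrins Casq2 and Casq1, phospholamban (Pln), the pumps Atp2a2 and Atp2a3, the ryanodine receptors Ryr2 and Ryr3, and the inositol trisphosphate (IP3) receptors Itpr1, Itpr2 and Itpr3. All 10 had a row among the 46517 genes of the count table, and they were described in all 1307 cells. Levels are given as CPM (a gene's counts per 1000000 counts of the cells summed), for each mouse apart.

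Contraction of muscle starts with calcium entering the cytosol, partly from the sarcoplasmic reticulum. SERCA pumps, encoded by the Atp2a genes, load the store, calsequestrin buffers calcium inside it, and phospholamban is a small membrane protein that inhibits the pump until it is phosphorylated. Ryanodine receptors and IP3 receptors are the release channels. Casq2, Pln, Atp2a2 and Ryr2 are best known from cardiomyocytes, while vascular smooth muscle uses the same kinds of protein to set vessel tone.

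The hearts came from adult mice of 8 to 30 weeks. Double-reporter mice (ACTA2GFP:CSPG4dsRED) carry green fluorescent protein driven by Acta2 and red fluorescent protein driven by Cspg4, and gave 368, 245 and 336 cells from mice 1, 2 and 3. C57BL/6 mouse 1, without reporters, gave 347 cells. The other 11 cells came from 4 more mice (ACTA2GFP, CSPG4dsRED and C57BL/6) and entered no comparison. Double-reporter mouse 3 is female by its labels, although the design text speaks of males. Every tested cell came from a mouse that carries both reporters.

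Cells held 50476 to 811982 counts each (median 274702). Each of these 4 mice was sorted to its own plate, and an effect of the mouse cannot be told apart from one of the plate. Every test was made within mice, between classes on the same plate. Classes were rebuilt from expression with the 10 genes withheld. The smooth muscle-like class of 215 cells was made of cluster 1 (154 cells, led by Olfr78 and Gpr20) and cluster 10 (61 cells, with Sost and Npnt among its leading genes), and both raised 10 of the 10 smooth muscle markers. Pericyte-like cells numbered 48, 13 and 9 in double-reporter mice 1, 2 and 3, and fibroblast-like cells 89, 115 and 253. The pericyte-like cluster raised 9 of 9 pericyte markers, and the 5 fibroblast-like clusters 5 to 10 of 10 fibroblast markers. Endothelial-like (229 cells), endocardial-like (66) and lymphatic endothelial-like cells (11) of C57BL/6 mouse 1 had no counterpart of 10 cells in another mouse, so that their levels rest on 1 mouse and entered no test.

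Casq2 and Pln marked off the mural cells, the muscle and pericyte cells of the vessel wall, in different ways. Casq2 was high in smooth muscle-like and pericyte-like cells alike, whereas Pln was high in smooth muscle-like cells and low in pericyte-like cells. Among smooth muscle-like cells, Casq2 was higher in cells with much Rgs5 RNA than in the rest. The rest held little Casq2 in cluster 10 and intermediate levels in cluster 1. Among the named classes both pumps were highest in smooth muscle-like cells. Of the IP3 receptors, Itpr1 made up nearly the whole total in smooth muscle-like cells, Itpr2 was highest in endocardial-like and endothelial-like cells and Itpr3 in Schwann-like cells. Ryanodine receptor RNA stayed under 10 CPM in every named class with at least 10 cells. Within the smooth muscle-like class it averaged 0.477 CPM per kb of exon in cluster 10 and 0.128 in cluster 1.

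**Figure D1:**
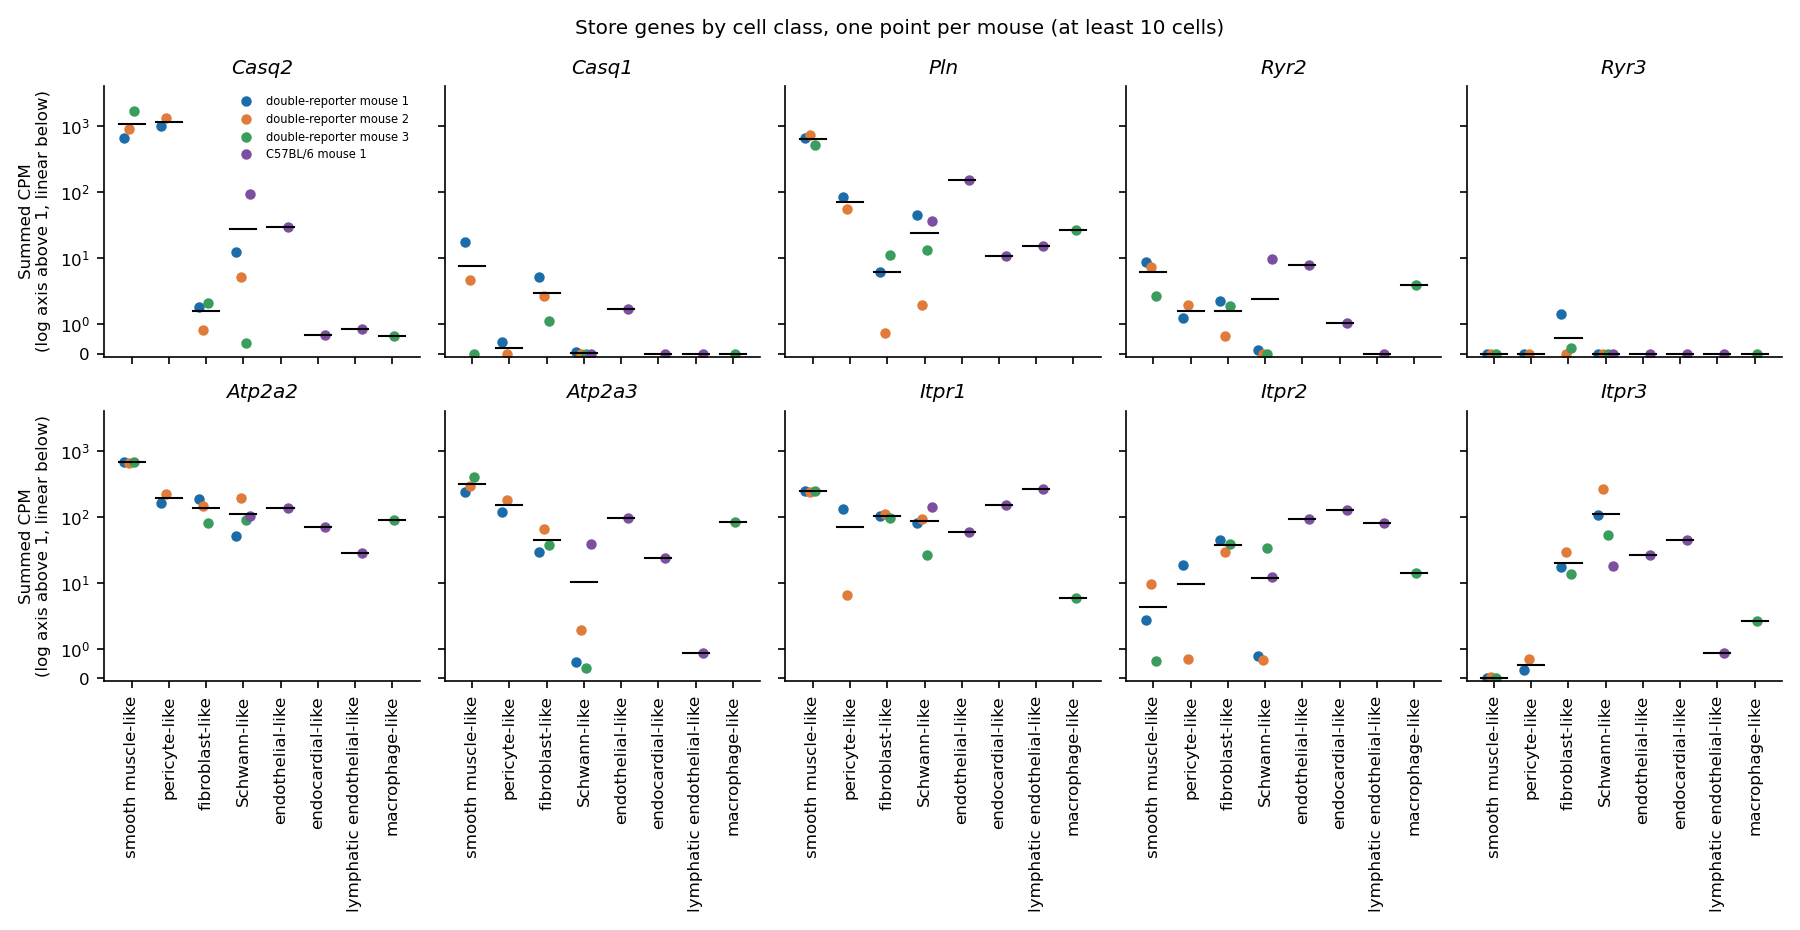
Summed CPM of each store gene by cell class, 1 point per mouse with at least 10 cells and the mean as a bar, on a vertical axis that is logarithmic above 1. Casq2 stands at 655 to 1651 CPM in smooth muscle-like cells and 980 to 1323 CPM in pericyte-like cells, while Pln stands at 511 to 722 CPM and 54.3 to 85.1 CPM in the same classes.

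Sums per mouse and class were compared with edgeR's quasi-likelihood test, the mouse as a block and Benjamini-Hochberg adjustment over all genes, and a gene was called at an adjusted p under 0.05. In smooth muscle-like against fibroblast-like cells (3 mice), 5 of 9 tested members were higher and 1 was lower, where 5.36% of the 16244 genes tested were called. In smooth muscle-like against pericyte-like cells (2 mice), 2 of 8 tested members were higher and 0 lower, against 2.10% of 14284 genes. In pericyte-like against fibroblast-like cells (2 mice), 1 of 9 was higher and 0 lower, against 3.10% of 15579 genes. The median log2 change of the tested members was 2.07, 2.13 and 0.15 in these 3 comparisons, beside -0.16, 0.50 and -0.62 over all genes tested. With the mouse as a block 871, 300 and 483 genes were called in them, and without it 1335, 107 and 205. The comparisons share their sums, so they are not independent of each other.

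Another comparison split the cells with at least 1000 CPM of Myh11, the smooth muscle myosin heavy chain, by Rgs5, a G-protein regulator of mural cells. The double-reporter mice held 141 such cells with at least 1000 CPM of Rgs5 (Rgs5-high) and 112 below it (Rgs5-low). Mouse 3 had a single Rgs5-low cell, so the test rests on mice 1 and 2. In it edgeR called 0 of 14489 genes (0.00%), with 1580 genes at an unadjusted p under 0.05, 2 of the 8 tested members among them. DESeq2 called 1019 of the 13646 genes to which it gave an adjusted p (7.47%), Casq2 and Atp2a3 among them. Within the smooth muscle-like cells of both sides, edgeR called 42 of 13801 genes (0.304%), again with Casq2 and Atp2a3 among them.

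**Figure D2:**
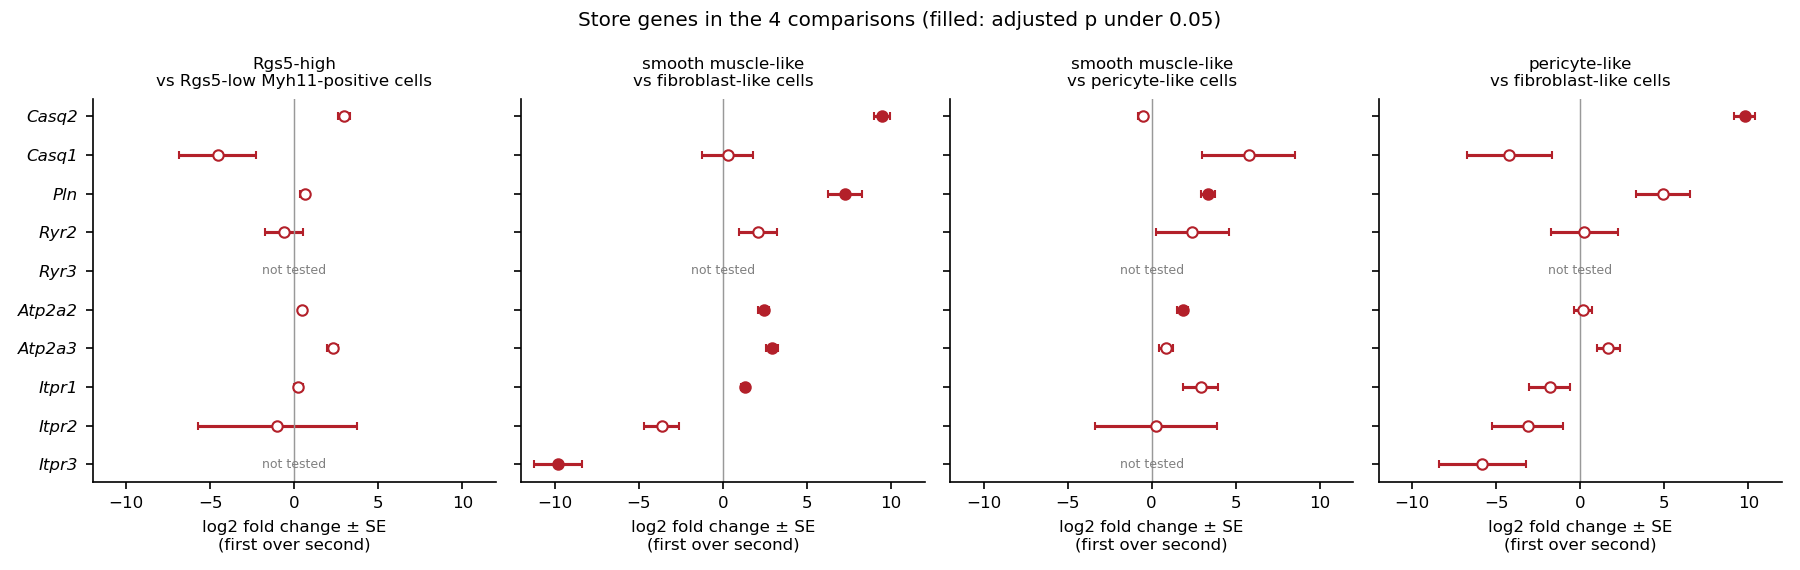
Log2 fold change and standard error of each store gene in the 4 comparisons, the class or side named first over the one named second, with filled points for an adjusted p under 0.05 (edgeR). Casq2 lies at 9.47 and 9.78 against fibroblast-like cells, and at -0.53, unfilled, between smooth muscle-like and pericyte-like cells.

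The upstream sequences of Casq2, Pln and Atp2a3, whose levels differed between kinds of mural cell, are shown here as the 250 bases before the transcription start on the coding strand. They are from RefSeq on GRCm38.p6, whose table held 7 of the 10 genes, all but Itpr1, Ryr3 and Atp2a2. The 4 motifs were searched on both strands: the CArG box of serum response factor, the MEF2 motif, the E-box CANNTG and the TATA box TATAAA. Capitals mark the motifs found. Casq2 is followed by Pln and Atp2a3, at chr3:102086165-102086414, chr10:53337436-53337685 and chr11:72960919-72961168, all on the plus strand. Gene coordinates given below are from GENCODE, which starts Pln at 53337667, so the end of the Pln stretch lies inside the gene as placed there.
Casq2: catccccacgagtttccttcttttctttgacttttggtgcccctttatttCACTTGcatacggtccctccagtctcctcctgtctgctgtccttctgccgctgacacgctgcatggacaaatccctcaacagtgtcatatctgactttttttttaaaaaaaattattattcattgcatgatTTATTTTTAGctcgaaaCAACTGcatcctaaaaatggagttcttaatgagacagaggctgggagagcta
Pln: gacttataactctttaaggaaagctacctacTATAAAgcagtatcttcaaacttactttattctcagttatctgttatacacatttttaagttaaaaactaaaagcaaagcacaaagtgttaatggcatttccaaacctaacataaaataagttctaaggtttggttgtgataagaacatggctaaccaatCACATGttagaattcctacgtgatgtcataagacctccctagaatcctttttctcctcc
Atp2a3: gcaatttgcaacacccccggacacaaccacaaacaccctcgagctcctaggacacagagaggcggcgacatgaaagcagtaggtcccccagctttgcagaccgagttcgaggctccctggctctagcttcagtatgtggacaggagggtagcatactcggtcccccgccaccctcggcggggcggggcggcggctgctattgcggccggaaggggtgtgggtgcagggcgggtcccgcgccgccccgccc
The Casq2 stretch held 1 MEF2 motif, starting at position -69, and 2 E-boxes. The Pln stretch held 1 E-box at -59 and 1 TATA box at -219, and the Atp2a3 stretch, rich in G and C near the start, held none of the 4. Of 32851 promoter stretches of this length, 2.92% held the MEF2 motif, 66.2% an E-box, 12.4% the TATA box and 1.47% the CArG box, which none of the 3 held. A match is a match of letters and was not tested as a binding site.

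Casq2, the cardiac calsequestrin, is encoded at chr3:102086415-102146514 (plus strand, GRCm38) and had a count in 549 of all cells (42.0%). Smooth muscle-like cells held 655, 903 and 1651 CPM in double-reporter mice 1, 2 and 3, pericyte-like cells 980 and 1323 CPM in mice 1 and 2, and fibroblast-like cells 1.85, 0.795 and 2.09 CPM in mice 1, 2 and 3. Both mural classes were thus far above fibroblast-like cells in every mouse with at least 10 cells of the class, and their ranges overlapped. Of the 9 pericyte-like cells of mouse 3, not summed here, 4 (44.4%) reached 100 CPM of Casq2. Casq2 was higher in smooth muscle-like than in fibroblast-like cells by 9.47 ± 0.49 on the log2 scale (SE, adjusted p = 0.00441, edgeR), with 3 of 3 mice in that direction. It was also higher in pericyte-like than in fibroblast-like cells, by 9.78 ± 0.64 (SE, adjusted p = 1.6e-05, edgeR, 2 of 2 mice). Between smooth muscle-like and pericyte-like cells the change was -0.53 ± 0.27 (SE, adjusted p = 0.437, edgeR), with means of 779 ± 176 and 1151 ± 242 CPM (SD, n = 2 mice). This does not show that the classes hold the same level.

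In the named classes other than the mural ones, Casq2 was lower. Schwann-like cells varied widely, with 12.3, 5.14 and 0.363 CPM in double-reporter mice 1, 2 and 3 and 94.0 CPM in C57BL/6 mouse 1. In the same order they held 5.37, 28.9, 32.7 and 5779 CPM of endothelial markers. Their cardiomyocyte markers summed to 387, 179, 391 and 1402 CPM. The part of RNA of other cells in the Schwann-like levels, here and for the other members, was not tested. Endothelial-like cells of C57BL/6 mouse 1 held 29.5 CPM, endocardial-like cells 0.642, lymphatic endothelial-like cells 0.851 and macrophage-like cells of mouse 3 0.614 CPM. A Casq2 count was found in 84.1% (95% Clopper-Pearson interval 76.0 to 90.3), 75.3% (64.2 to 84.4) and 86.4% (65.1 to 97.1) of smooth muscle-like cells in mice 1, 2 and 3, and in 37.1%, 17.4% and 28.5% of fibroblast-like cells. Thinned to 50000 counts per cell, the shares were 65.5%, 64.9% and 86.4% of smooth muscle-like cells and 7.87%, 2.61% and 5.93% of fibroblast-like cells. Macrophage-like cells, which should lack the gene, gave 6.67%, or 3.33% after thinning, at a median of 161314 counts per cell, against medians of 307704, 199675 and 143983 in smooth muscle-like cells. After thinning, 0 of 66 endocardial-like cells had a count.

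The smooth muscle-like level of Casq2 was an average over unlike clusters. Cluster 1 held 1095, 1303 and 1917 CPM in mice 1, 2 and 3, whereas cluster 10, with 37 and 20 cells, held 18.1 and 2.84 CPM in mice 1 and 2. Cluster 10 thus stood far below cluster 1, though above the 1.85 and 0.795 CPM of fibroblast-like cells in the same mice, while it kept the smooth muscle markers. When only cluster 10 stood for smooth muscle, Casq2 was lower than in pericyte-like cells by 7.13 on the log2 scale (adjusted p = 0.00199, edgeR), and its difference from fibroblast-like cells was 2.60 (adjusted p = 0.479, edgeR). With cluster 1 alone, the change against pericyte-like cells was 0.26. These cluster splits were made after the data were seen.

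Casq2 also followed the Rgs5 split. Rgs5-high cells held 1002, 1249 and 1637 CPM in mice 1, 2 and 3, and Rgs5-low cells 87.8 and 229 CPM in mice 1 and 2, with 17.4 CPM in the single cell of mouse 3. No Rgs5-low sum reached any Rgs5-high sum. The log2 change was 2.96 ± 0.36 (SE, unadjusted p = 0.000952, adjusted p = 0.199, edgeR), higher in 2 of 2 mice, and DESeq2 gave an adjusted p of 1.17e-21. The 3 Rgs5-high and 3 Rgs5-low cells of C57BL/6 mouse 1, which entered no test, held 1294 and 213 CPM. The Rgs5-high cells of this mouse all lay in the unnamed cluster 14, and the Rgs5-low cells in clusters 1 and 10. Their smooth muscle markers summed to 11155 and 25594 CPM and their endothelial markers to 5743 and 4739 CPM. In this mouse the sides thus differed in cluster as well as in Rgs5.

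Per cell, the medians were 693, 1343 and 1528 CPM among Rgs5-high cells and 3.68 and 5.47 CPM among Rgs5-low cells. At least 100 CPM of Casq2 was reached by 73.3%, 74.5% and 84.2% of Rgs5-high cells and by 20.3% and 21.6% of Rgs5-low cells. A Casq2 count of any size was found in 89.3%, 83.0% and 89.5% of Rgs5-high cells and in 64.9% and 54.1% of Rgs5-low cells, and the plot of single cells by Rgs5 side shows the spread of their levels. Pearson's r of log2 Casq2 with log2 Rgs5 was 0.53, 0.56 and 0.32 over 149, 84 and 20 Myh11-positive cells of mice 1, 2 and 3, given as a description of cells that share a library plate.

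**Figure D3:**
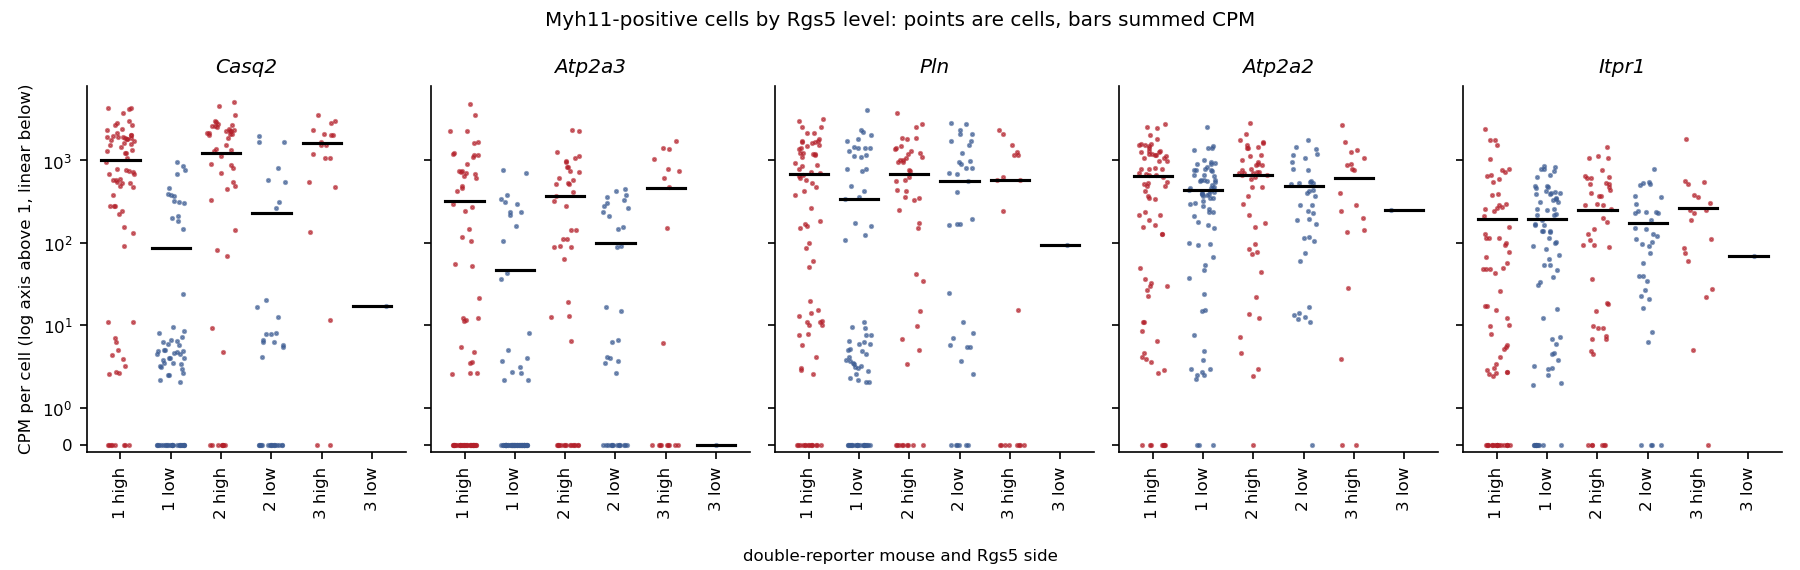
CPM per cell of 5 store genes in Myh11-positive cells of double-reporter mice 1, 2 and 3, Rgs5-high (red) left of Rgs5-low (blue), with the summed CPM as a bar, on a vertical axis that is logarithmic above 1. Casq2 medians are 693 to 1528 CPM in Rgs5-high cells against 3.68 and 5.47 CPM in Rgs5-low cells of mice 1 and 2.

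Which clusters filled the Rgs5 sides differed. Of Rgs5-high cells, cluster 1 gave 53, 36 and 18 in mice 1, 2 and 3, and cluster 10 gave 4, 1 and 1. Of Rgs5-low cells, cluster 1 gave 17 and 19 and cluster 10 gave 33 and 17 in mice 1 and 2. The unnamed cluster 4 gave 18 and 10 Rgs5-high and 14 and 1 Rgs5-low cells, and the fibroblast-like cluster 9 gave 10 Rgs5-low cells of mouse 1. Restricted to smooth muscle-like cells, the Casq2 change was 3.18 ± 0.22 (SE, adjusted p = 0.0299, edgeR). Restricted to cluster 1, Rgs5-high cells held 1389, 1790 and 1715 CPM in mice 1, 2 and 3 and Rgs5-low cells 354 and 498 CPM in mice 1 and 2. Within that cluster the change was 1.87 ± 0.15 (SE, adjusted p = 0.134, edgeR, 1 of 12115 genes called, 0.00825%), so that it kept its direction in both mice and was not called.

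Marker sums of fibroblasts and pericytes differed between the Rgs5 sides too. The summed level of 10 fibroblast markers was 3660, 4636 and 3709 CPM in Rgs5-high cells of mice 1, 2 and 3 and 7791 and 6467 CPM in Rgs5-low cells of mice 1 and 2. That of 9 pericyte markers was 3175, 3390 and 2256 CPM against 541 and 394 CPM. The 10 smooth muscle markers summed to 21057, 25259 and 25906 CPM against 22149 and 31868 CPM. Among Myh11-positive cells the Rgs5 threshold ran through few cells, with 23 of 259 (8.88%) between 500 and 2000 CPM of Rgs5. Without the cells of fibroblast-like clusters the Casq2 change was 2.88 and that of Atp2a3 2.21 (adjusted p = 0.151 and 0.17, edgeR), a subset chosen after the data were seen. The part of pericyte RNA in the Casq2 difference was not tested.

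Casq1, the skeletal muscle calsequestrin at chr1:172209894-172219868 (minus strand), was rare. It had a count in 37 cells (2.83%). Sums of smooth muscle-like cells held 17.7, 4.70 and 0 CPM in mice 1, 2 and 3, and fibroblast-like cells 5.19, 2.67 and 1.1 CPM. The groups overlapped, and the change was 0.27 ± 1.51 (SE, adjusted p = 0.944, edgeR). Its smooth muscle-like counts lay mostly in cluster 10, with 37.7 and 15.3 CPM in mice 1 and 2, and there 59.1% and 80.0% of them came from a single cell of each mouse. In Rgs5-low cells it stood at 20.3 and 8.98 CPM, against 3.92 and 0 CPM in Rgs5-high cells of mice 1 and 2, and the change of -4.57 ± 2.27 was not called (SE, adjusted p = 0.613, edgeR).

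Pln, which encodes phospholamban, lies at chr10:53337667-53345987 (plus strand) and had a count in 561 cells (42.9%). Smooth muscle-like cells held 650, 722 and 511 CPM in mice 1, 2 and 3, pericyte-like cells 85.1 and 54.3 CPM in mice 1 and 2, and fibroblast-like cells 6.24, 0.700 and 11.2 CPM in mice 1, 2 and 3. Among sums of at least 10 cells the 3 classes did not overlap. The 9 pericyte-like cells of mouse 3, at 0.743 CPM, lay within the fibroblast-like range. Pln was higher in smooth muscle-like than in fibroblast-like cells by 7.27 ± 1.03 (SE, adjusted p = 0.0249, edgeR, 3 of 3 mice), and higher than in pericyte-like cells by 3.36 ± 0.41 (SE, adjusted p = 0.00336, edgeR, 2 of 2 mice). In pericyte-like against fibroblast-like cells the change was 4.94 ± 1.60 (SE, adjusted p = 0.183, edgeR), which DESeq2 called with an adjusted p of 0.000354. The call against pericyte-like cells was lost when mouse 3, whose 9 pericyte-like cells held 0.743 CPM, was added (4.56, adjusted p = 0.137, edgeR), and with cluster 1 alone as smooth muscle (5.10, adjusted p = 0.0691, edgeR). Classes set by marker levels in place of clusters ended the call against fibroblast-like cells (8.48, adjusted p = 0.0627, edgeR).

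The next class after smooth muscle-like cells was endothelial-like, with 150 CPM of Pln in C57BL/6 mouse 1. Schwann-like cells held 45.5, 1.93, 13.1 and 36.7 CPM in double-reporter mice 1, 2 and 3 and C57BL/6 mouse 1, and macrophage-like cells 26.2 CPM. A Pln count was found in 84.1%, 87.0% and 59.1% of smooth muscle-like cells, 54.6% of endothelial-like cells and 23.3% of macrophage-like cells. After thinning to 50000 counts the shares were 64.6%, 79.2% and 50%, then 39.7% and 13.3%. The thinned share was 8.99%, 2.61% and 8.70% in fibroblast-like cells of mice 1, 2 and 3 and 9.09% in endocardial-like cells. Macrophage-like cells also held 624 CPM of the 12 cardiomyocyte markers.

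RNA of cardiomyocyte marker genes was present beside these Pln values. The 12 cardiomyocyte markers, Myh6 and Tnnt2 among them, summed to 802, 570 and 346 CPM in smooth muscle-like cells, 541 and 292 CPM in pericyte-like cells, 274, 139 and 125 CPM in fibroblast-like cells and 1838 CPM in endothelial-like cells. Without the cells at 500 CPM or more of these markers, the Pln change in smooth muscle-like against fibroblast-like cells was 8.76 (adjusted p = 0.0176, edgeR). The part of cardiomyocyte RNA in the Pln levels of these classes was not tested. Pln also overlaps the antisense genes Gm47644, by 1644 bases, and Cep85l, by 141 bases, and since the strand setting of the counting is not given in the sources used here, their reads cannot be told apart from those of Pln.

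Pln differed widely between the smooth muscle-like clusters. Cluster 1 held 1039, 1019 and 590 CPM in mice 1, 2 and 3, and cluster 10 held 87.4 and 53.1 CPM in mice 1 and 2. Rgs5-high cells held 680, 682.8 and 582 CPM and Rgs5-low cells 344 and 560 CPM, a change of 0.62 ± 0.27 (SE, adjusted p = 0.552, edgeR). The few cells of C57BL/6 mouse 1 held 104 CPM on the Rgs5-high and 384 CPM on the Rgs5-low side. There the Rgs5-high cells were all of cluster 14 and the Rgs5-low cells of clusters 1 and 10. Among smooth muscle-like cells the change was 0.81 ± 0.16 (SE, unadjusted p = 0.00436, adjusted p = 0.165, edgeR), higher in 2 of 2 mice and not called. Within cluster 1 the order turned: Rgs5-high cells held 955, 984 and 610 CPM in mice 1, 2 and 3, and Rgs5-low cells 1460 and 1166 CPM in mice 1 and 2, a change of -0.47 ± 0.15 that was not called (SE, adjusted p = 0.679, edgeR). All Rgs5-high sums of cluster 1 lay under both Rgs5-low sums. Against pericyte-like cells, cluster 10 alone gave a Pln change of 0.06 (adjusted p = 0.995, edgeR), which does not show equal levels.

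Counted cell by cell, Casq2 and Pln were found together in many cells of cluster 1 and seldom in Rgs5-low cells of cluster 10 or in pericyte-like cells. Of 107 Rgs5-high cells of cluster 1 in the double-reporter mice, 96 (89.7%) reached 100 CPM of Casq2, 75 (70.1%) reached 100 CPM of Pln, and 69 reached both. Of 36 Rgs5-low cells of cluster 1, 21 (58.3%) reached it for Casq2, all 36 for Pln and 21 for both. Of 51 Rgs5-low cells of cluster 10, 1 reached it for Casq2, 10 for Pln and 0 for both. Of 70 pericyte-like cells, 44 (62.9%) reached it for Casq2 and 8 (11.4%) for Pln, and 38 did so for Casq2 alone. Cells of 1 mouse are not independent, and these counts carry no test.

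**Figure D4:**
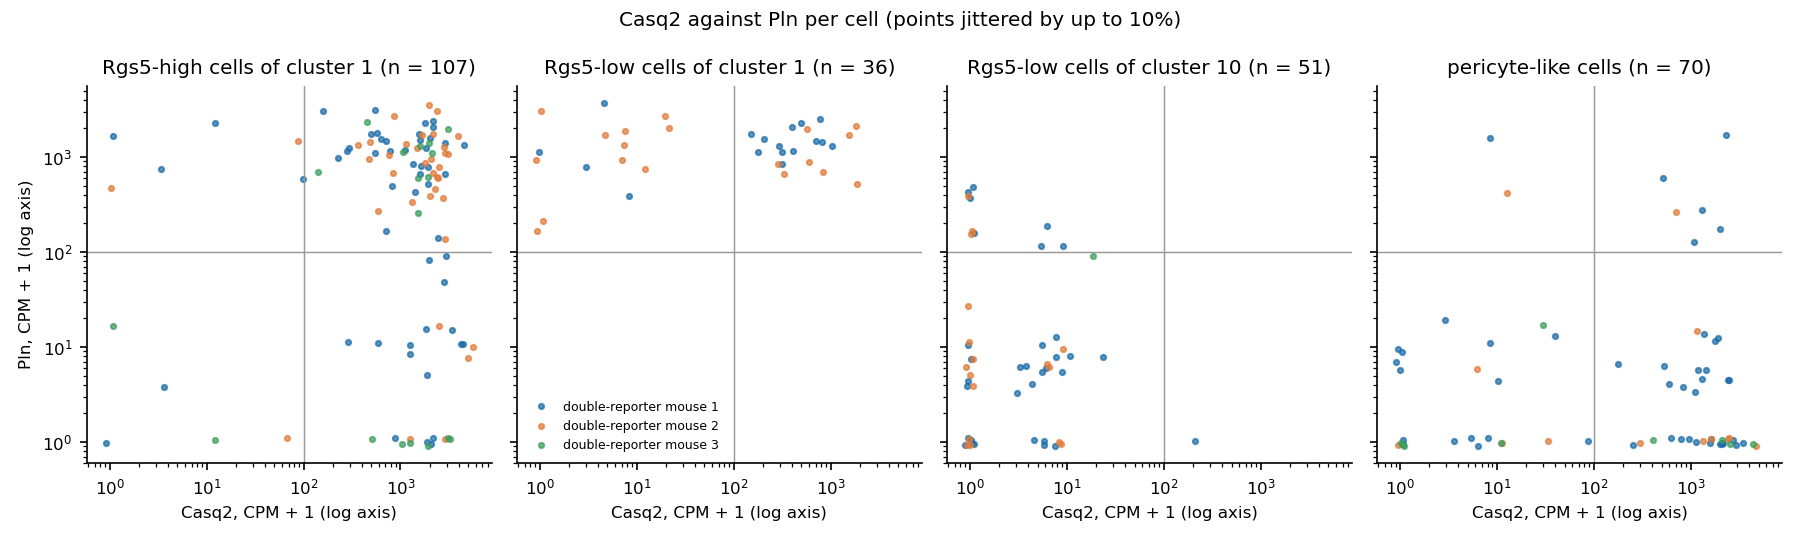
Casq2 against Pln in single cells of the double-reporter mice, both as CPM + 1 on logarithmic axes, with lines at 100 and small jitter, colours marking the mouse. Rgs5-high cells of cluster 1 gather at the upper right (69 of 107 with both genes), Rgs5-low cells of cluster 1 all lie in the upper part (36 of 36 with Pln), cluster 10 lies to the left and pericyte-like cells lie along the bottom.

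Atp2a2, which encodes SERCA2 and lies at chr5:122453513-122502225 (minus strand), was the most widely detected member, with a count in 962 cells (73.6%). It stood at 681, 652 and 680 CPM in smooth muscle-like cells of mice 1, 2 and 3, at 165 and 222 CPM in pericyte-like cells of mice 1 and 2, and in fibroblast-like cells at 185, 146 and 81.3 CPM in mice 1, 2 and 3. Smooth muscle-like cells stood apart from both, with a mean of 671 ± 16.6 CPM (SD, n = 3 mice), while pericyte-like and fibroblast-like cells overlapped. The gene was higher in smooth muscle-like than in fibroblast-like cells by 2.43 ± 0.32 (SE, adjusted p = 0.0206, edgeR) and than in pericyte-like cells by 1.84 ± 0.34 (SE, adjusted p = 0.0311, edgeR). The call against pericyte-like cells was lost without the mouse block (adjusted p = 0.101) and with classes set by marker levels (adjusted p = 0.0737). Unlike Casq2 and Pln, Atp2a2 was high in cluster 10 (550 and 489 CPM) as well as in the Rgs5-low cells of cluster 1 (531 and 574 CPM), and it was still called against fibroblast-like cells when only cluster 10 was used (1.68, adjusted p = 0.043, edgeR). In pericyte-like against fibroblast-like cells the change was 0.15 ± 0.52 (SE, adjusted p = 0.957, edgeR).

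Between Rgs5-high cells (642, 672 and 621 CPM in mice 1, 2 and 3) and Rgs5-low cells (442 and 489 CPM in mice 1 and 2) the Atp2a2 change was 0.48 ± 0.19 (SE, adjusted p = 0.498, edgeR). The sums of these mice did not overlap, though the difference was not called. In the 3 Rgs5-high and 3 Rgs5-low cells of C57BL/6 mouse 1 the order was the other way, with 428 and 678 CPM. Those Rgs5-high cells were all of cluster 14, and those Rgs5-low cells of clusters 1 and 10. Most cells on both sides held the gene: 66.7%, 72.3% and 78.9% of Rgs5-high cells and 71.6% and 75.7% of Rgs5-low cells reached 100 CPM. In other classes Atp2a2 ran from 28.4 CPM in lymphatic endothelial-like cells to 191 CPM in Schwann-like cells of mouse 2. Its short antisense neighbour Gm43361, with 83 bases of overlap, could share reads.

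Atp2a3, which encodes SERCA3 and lies at chr11:72961169-72993044 (plus strand), had a count in 409 cells. Its level was 235, 288 and 405 CPM in smooth muscle-like cells of mice 1, 2 and 3, 120 and 177 CPM in pericyte-like cells of mice 1 and 2, and in fibroblast-like cells 29.9, 64.7 and 37.5 CPM in mice 1, 2 and 3. Among these sums the classes did not overlap. The gene was higher in smooth muscle-like than in fibroblast-like cells by 2.92 ± 0.35 (SE, adjusted p = 0.0163, edgeR, 3 of 3 mice). The change was 0.87 ± 0.42 in smooth muscle-like against pericyte-like cells and 1.67 ± 0.69 in pericyte-like against fibroblast-like cells, and neither was called (adjusted p = 0.412 and 0.284, edgeR).

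Atp2a3 was the other member that followed Rgs5. Rgs5-high cells held 318, 369 and 463 CPM in mice 1, 2 and 3, and Rgs5-low cells 47.3 and 101 CPM in mice 1 and 2. The sums did not overlap, and the change was 2.29 ± 0.34 (SE, unadjusted p = 0.00196, adjusted p = 0.227, edgeR), with a DESeq2 adjusted p of 8.35e-09. Within smooth muscle-like cells it was 2.50 ± 0.23 (SE, adjusted p = 0.0457, edgeR). Within cluster 1 the change was 2.34 ± 0.22, not called (SE, adjusted p = 0.179, edgeR), with 469, 538 and 486 CPM in Rgs5-high cells against 84.6 and 109 CPM in Rgs5-low cells. Per cell the gene was patchy, at 100 CPM or more in 37.3%, 51.1% and 47.4% of Rgs5-high cells and in 14.9% and 32.4% of Rgs5-low cells.

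Per kilobase of exon the balance of the pumps therefore shifted between kinds of muscle cell. Atp2a3 made up 36.3%, 38.7% and 46.2% of the summed Atp2a2 and Atp2a3 CPM per kb in Rgs5-high cells of mice 1, 2 and 3, and 11% and 19.2% in Rgs5-low cells of mice 1 and 2. The share in pericyte-like cells was 45.6% and 47.9%. The highest share, 84.6%, was in the 41 cells of the endothelial-like cluster 11, which is led by the arterial genes Gja5 and Sema3g, while the larger endothelial-like cluster 0 (197 cells) stood at 31.8%. Cluster 11 held 232 CPM of Atp2a3 and 48.7 CPM of Atp2a2, all from C57BL/6 mouse 1.

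**Figure D5:**
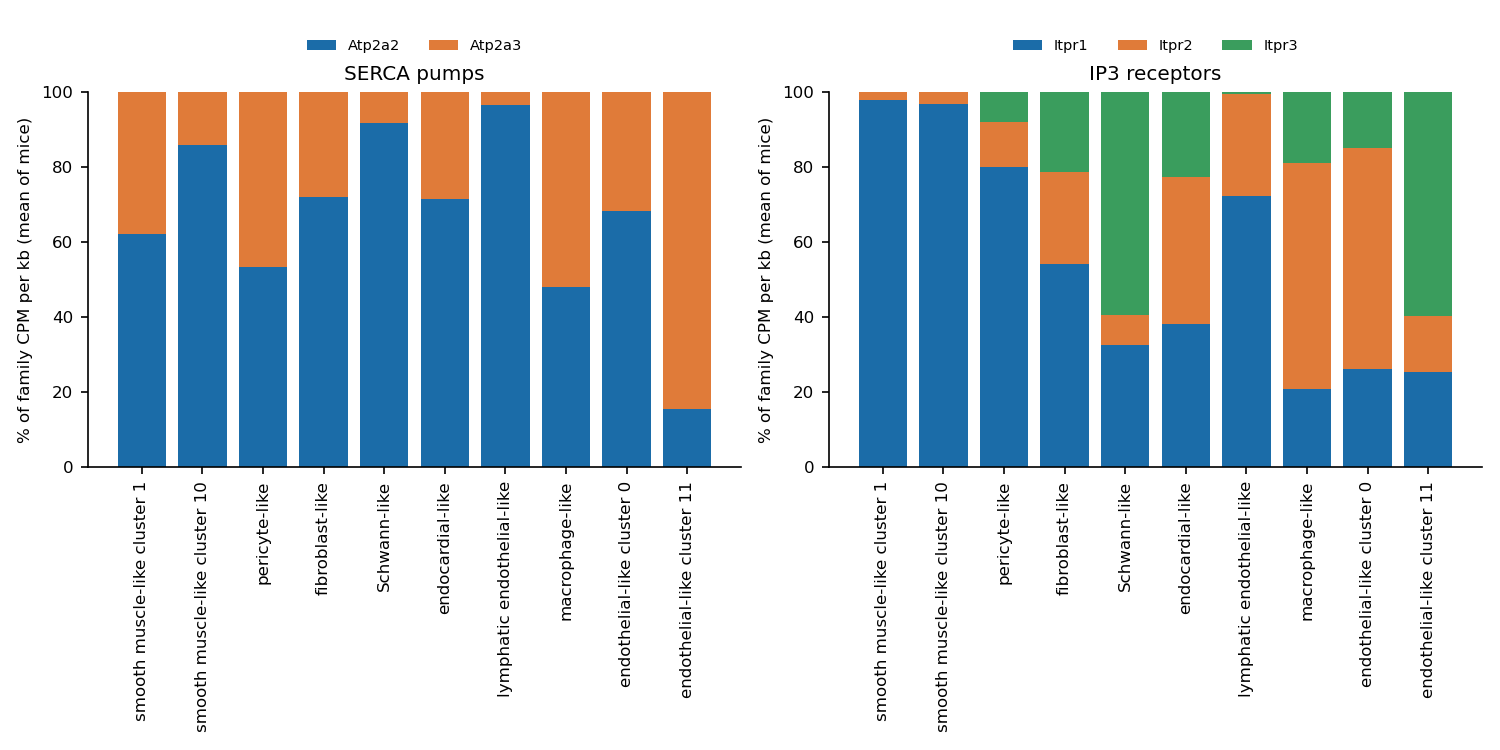
Share of each SERCA pump (left) and each IP3 receptor (right) in its family's summed CPM per kb, by class or cluster, as the mean over mice with at least 10 cells. Atp2a3 takes 84.6% of the pump total in endothelial-like cluster 11, and Itpr1 takes nearly all of the receptor total in smooth muscle-like clusters.

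Itpr1, the type 1 IP3 receptor at chr6:108213096-108551109 (plus strand), had a count in 831 cells. Smooth muscle-like cells held 242, 239 and 248 CPM in mice 1, 2 and 3, and fibroblast-like cells 104, 109 and 96.0 CPM. The gene was higher in smooth muscle-like cells by 1.31 ± 0.21 (SE, adjusted p = 0.0348, edgeR, 3 of 3 mice), but leaving out any 1 mouse ended the call (adjusted p 0.0509 to 0.171, edgeR). Pericyte-like cells held 132.1 and 6.47 CPM in mice 1 and 2, a wide spread, and the change in smooth muscle-like against pericyte-like cells was 2.91 ± 1.05 (SE, adjusted p = 0.298, edgeR), with a DESeq2 adjusted p of 0.0129. In pericyte-like against fibroblast-like cells it was -1.81 ± 1.22 (SE, adjusted p = 0.57, edgeR), with opposite directions in mice 1 and 2. Lymphatic endothelial-like cells held 262 CPM and endocardial-like cells 153 CPM in C57BL/6 mouse 1, so that Itpr1 was not particular to muscle.

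On the Rgs5 split Itpr1 stood at 196, 253 and 267 CPM in Rgs5-high cells and 198 and 172 CPM in Rgs5-low cells, a change of 0.25 ± 0.25 (SE, adjusted p = 0.843, edgeR). The sums overlapped. In mouse 1 near-equal sums went with unlike medians, of 17.4 CPM per Rgs5-high cell and 109 CPM per Rgs5-low cell.

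Itpr2, the type 2 receptor at chr6:146108299-146502223 (minus strand), was highest in endocardial-like cells (126.6 CPM), endothelial-like cells (91.8 CPM) and lymphatic endothelial-like cells (80.0 CPM), all of C57BL/6 mouse 1. Its level was 2.74, 9.67 and 0.592 CPM in smooth muscle-like cells of double-reporter mice 1, 2 and 3, and in fibroblast-like cells 43.9, 29.5 and 39.4 CPM. Smooth muscle-like cells were below fibroblast-like cells in every mouse, but the change of -3.65 ± 1.04 was not called by edgeR (SE, adjusted p = 0.126) and was called by DESeq2 (adjusted p = 0.000138).

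Itpr3, the type 3 receptor at chr17:27057304-27122223 (plus strand), was nearly absent from smooth muscle-like cells. It gave 1 count in 53366242 counts of 212 smooth muscle-like cells of the double-reporter mice, against 2390 in 129057849 counts of 457 fibroblast-like cells, a ratio of 0.00101 (95% exact interval 2.56e-05 to 0.00564, counting error only). By mouse, smooth muscle-like cells held 0, 0.0672 and 0 CPM and fibroblast-like cells 17.7, 29.4 and 13.6 CPM in mice 1, 2 and 3. The gene was lower in smooth muscle-like cells (adjusted p = 0.026, edgeR, 3 of 3 mice), a call that was lost without mouse 1 (adjusted p = 0.0873) or without mouse 2 (adjusted p = 0.168). Pericyte-like cells held 0.274 and 0.647 CPM in mice 1 and 2, and their difference from fibroblast-like cells was not called by edgeR (adjusted p = 0.287) and was called by DESeq2 (adjusted p = 0.0142). The highest Itpr3 levels of a class were 106, 262 and 53.8 CPM in Schwann-like cells of double-reporter mice 1, 2 and 3, while those of C57BL/6 mouse 1 held 17.9 CPM. Single cells weighed heavily there: 1 cell gave 32.2%, 60.7% and 52.7% of the Schwann-like Itpr3 counts in mice 1, 2 and 3.

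Per kilobase, Itpr1 was 98.6%, 95.2% and 99.7% of the IP3 receptor total in smooth muscle-like cells and 53.5%, 53.1% and 55.7% in fibroblast-like cells of mice 1, 2 and 3. Itpr3 was 72.5%, 85.2% and 61.5% of it in Schwann-like cells of those mice and 18.7% in those of C57BL/6 mouse 1. Itpr2 led in endothelial-like cluster 0 (59.2%) and macrophage-like cells (60.3%), and Itpr3 in endothelial-like cluster 11 (59.8%). The leading receptor gene thus differed between classes, as the plot of family shares shows.

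Ryr2, the cardiac ryanodine receptor at chr13:11553102-12106945 (minus strand), had 1348 counts in all cells together. By mouse, smooth muscle-like cells held 8.72, 7.32 and 2.66 CPM and fibroblast-like cells 2.28, 0.604 and 1.90 CPM in mice 1, 2 and 3, a change of 2.07 ± 1.13 (SE, adjusted p = 0.395, edgeR). Every mouse had the higher sum in smooth muscle-like cells, but the level was near that of macrophage-like cells (3.89 CPM) and endothelial-like cells (7.92 CPM). Rgs5-high cells held 5.18, 6.22 and 0.679 CPM of Ryr2 in mice 1, 2 and 3, and Rgs5-low cells 10.6 and 6.93 CPM in mice 1 and 2. Per kilobase, ryanodine receptor RNA averaged 0.477 CPM in cluster 10 (2 mice) and 0.128 CPM in cluster 1 (3 mice). Ryr3, at chr2:112631355-113217096 (minus strand), had 66 counts in 4 cells and was too low to test. Smooth muscle-like cells gave 0 counts, which allows up to 0.0562 CPM. In the comparisons with pericyte-like cells edgeR called none of Casq1, Ryr2 and Itpr2, and on the Rgs5 split neither Ryr2 nor Itpr2 (adjusted p 0.407 to 0.989).

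Levels can be compared between genes only per kilobase of exon. On that scale the mean over mice in smooth muscle-like cells was 391 CPM per kb for Casq2, 228 for Pln, 110 for Atp2a2, 58.5 for Atp2a3 and 13.3 for Itpr1. In pericyte-like cells Casq2 stood at 421 ± 88.5 CPM per kb, Atp2a2 at 31.8 ± 6.66, Atp2a3 at 28.1 ± 7.70 and Pln at 25.3 ± 7.88 (SD, n = 2 mice). Casq2 came first in both classes, and Pln came second in smooth muscle-like cells. In pericyte-like cells Pln and both pumps differed by less than the SD between mice, so their order is not settled.

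Other genes of the store and its control were counted from a list of 50. In smooth muscle-like against fibroblast-like cells 6 of 45 tested were higher and 4 lower, where 5.36% of the 16244 genes tested were called. The median log2 change of the 45 was -0.35 beside -0.16 over all genes. Of those higher, 3 belong to the release channel complex, a group of 10 tested genes in which 1 other, Sri, was lower. The 3 were Hrc, the histidine-rich calcium-binding protein of the store lumen (7.57, adjusted p = 0.0162), and the TRIC cation channels Tmem38b (2.55, adjusted p = 0.0158) and Tmem38a (1.93, adjusted p = 0.0389), all by edgeR. Hrc averaged 36.4 CPM in smooth muscle-like and 0.207 CPM in fibroblast-like cells. Mrvi1, which encodes the IP3 receptor partner IRAG that links cGMP kinase to calcium release, averaged 491 and 37.5 CPM (3.89, adjusted p = 0.0136, edgeR). Camk2g, a calmodulin-dependent kinase, was higher by 2.28 (adjusted p = 0.0154, edgeR).

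The other 4 called genes of the list were lower in smooth muscle-like cells. The calcium-binding proteins of the secretory lumen Nucb2 and Rcn1 fell by 3.72 and 2.17 on the log2 scale (adjusted p = 0.0339 and 0.0311, edgeR). They were 2 of 11 tested genes of lumenal calcium binding, where 5.36% of all genes tested were called. Bok, a BCL-2 family protein that binds IP3 receptors, fell by 2.04 (adjusted p = 0.0307, edgeR), and Sri, which encodes the ryanodine receptor regulator sorcin, fell by 1.20 (adjusted p = 0.0355, edgeR). None of the 7 tested genes of store-operated entry was called, with 4 of them at an unadjusted p under 0.05, as were 20.7% of all genes tested. Of the 43 tested in pericyte-like against fibroblast-like cells, Rcn3 alone was called, at a mean of 205 and 835 CPM (-2.17, adjusted p = 0.0184, edgeR). Over all genes tested there, 3.10% were called. In smooth muscle-like against pericyte-like cells edgeR called 0 of 41, beside 2.10% of all genes tested. Of the 41, 6 had an unadjusted p under 0.05, as had 14.4% of all genes. On the Rgs5 split edgeR called 0 of 44, beside 0.00% of all genes tested. Of the 44, 9 had an unadjusted p under 0.05, as had 10.9% of all genes.

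Genes whose levels ran most like each member were sought by Pearson's r of log2(CPM + 1) over 16 sums of a class in a mouse. Casq2 ran with Higd1b (0.99), Ephx3 (0.97) and Hey2 (0.94), and Pln with the muscle filament gene Des (0.93), Chchd10 (0.91) and Atp5b (0.87). Atp2a2 ran with Oxct1, Gm44596 and Myh11 (each 0.89), and Atp2a3 with C2cd2 (0.93), Epb41 (0.91) and Fyco1 (0.89). Among the IP3 receptors, Itpr1 ran with Skp1a (0.91), Srpk2 (0.90) and Zc2hc1a (0.86), Itpr2 with Plxna2 (0.87), Stxbp6 (0.85) and Tpst2 (0.84), and Itpr3 with Epb41l4a (0.89), Os9 (0.88) and Lhfpl2 (0.87). Between members, r was 0.81 for Casq2 and Pln and 0.73 for Atp2a2 and Atp2a3, and -0.68 for Pln and Itpr3. The sums share mice and plates, and the values are descriptions.

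Store genes were also found in unnamed clusters that carried markers of several classes. Cluster 14, 14 cells of C57BL/6 mouse 1, held 1102 CPM of Casq2, with a count in every cell, 277 CPM of Atp2a3, 307 CPM of Atp2a2 and 118 CPM of Pln. It also held 137 CPM of Itpr3, a gene with 1 count in the smooth muscle-like cells of the double-reporter mice. Its marker sums were 8103 CPM for smooth muscle, 6540 CPM for endothelium and 3258 CPM for pericytes. Cluster 4, with 77 and 21 cells of double-reporter mice 1 and 2, held 125 and 66.3 CPM of Casq2, 18.4 and 17.1 CPM of Pln and 8.47 and 0.425 CPM of Atp2a3. Its Casq2 level lay between those of the mural classes and of fibroblast-like cells. The fibroblast markers of cluster 4 summed to 14281 and 15466 CPM in these mice, its smooth muscle markers to 12415 and 13168 CPM and its pericyte markers to 5194 and 6906 CPM. The part of mixed cells or RNA of other cells in these levels was not tested.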

How the data were processed

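Heart cells were sorted into plates for Smart-Seq2, per the labels' protocols, which reads whole transcripts and uses no molecular identifiers. The values are the deposited counts, whole-number reads per gene and cell. The tools named in the submitters' processing notes are bcl2fastq, featureCounts of Subread, Bowtie and Bowtie2, and the build is GRCm38 (mm10). Versions and the strand setting are not given in the sources used here.

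All 1307 cells passed the filter of 10000 counts and 500 genes, and no pair held identical values. Clusters were built with scanpy 1.11.5 and leidenalg 0.10.2 in Python 3.11.15 from 2000 variable genes, 30 principal components, 15 neighbours, resolution 1 and seed 0, with members, markers and pathway genes withheld. A cluster was named from a class with 3 or more markers at 100 CPM and 2 times their mean over clusters. That class also needed at least 2 times as many such markers as the next class. No other class could have more markers among the cluster's leading genes. The endothelial list did not compete where endocardial or lymphatic markers were raised in at least as large a share. Clusters that failed this stayed unnamed. Cardiomyocyte markers named none. Scrublet marked 1, 4, 2 and 4 doublets in the 4 large mice, which were kept.

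Counts were summed per mouse and class (at least 10 cells, or 5 per Rgs5 side) and tested with edgeR 4.0.16 (TMM, filterByExpr, quasi-likelihood F test) in R 4.3.3, after the same script was tested on simulated data. The replicate is the mouse. With the mouse as a block, p-values rest on how much the within-mouse differences varied between mice. This left 2 residual degrees of freedom with 3 mice and 1 with 2 mice. The spread of each gene was therefore estimated largely with the help of other genes. Both classes of a comparison came from the same animals, which is where the pairing comes from. Within a mouse, how far smooth muscle-like sums lay from their mean correlated with how far fibroblast-like sums did, with r of 0.115, 0.171 and 0.143 over 16244 genes, and with 2 mice r was 0.0945, 0.0647 and 0.0417 in the Rgs5, pericyte and pericyte-to-fibroblast comparisons. DESeq2 1.42.0, other thresholds and subsets were alternatives. Intervals are exact binomial at 95%. They and the floor of 3 counts cover counting error only, since amplified reads are not independent molecules.

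The text names all 10 members, the called genes of a pathway list (up to 6 each way), of which 1 is not reported here, and the 3 genes most like each member that averages 100 CPM in a class. Members and lists were chosen with earlier results of these data known. Classes are rebuilt from expression and have no other check.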

Additional observations from a re-analysis of the deposited data

Results flagged for a closer look

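Signal of the store genes was seen in cells that entered no comparison. The 3 cells of ACTA2GFP mouse 1 together held 2272 CPM of Pln, 385 CPM of Atp2a2, 58.8 CPM of Casq2 and 9.40 CPM of Itpr1, each above the 7.05 CPM that 3 counts would give in them. The same 3 cells held 30363 CPM of the 12 cardiomyocyte markers. The 4 cells of C57BL/6 mouse 2 held 735 CPM of Pln and 108 CPM of Casq2, beside 3093 CPM of those markers and a limit of 13.5 CPM. The part of cardiomyocyte RNA in these values was not tested.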

How the results depend on the processing

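The number of genes called moved by more than 1.5 times under 24 alternatives and by less under 18. For Rgs5-high against Rgs5-low cells edgeR called 0 genes, DESeq2 1019, edgeR 21 without a filter on low counts, 10 and 1 with a Myh11 threshold of 500 and 2000 CPM, 1 and 19 with an Rgs5 threshold of 500 and 2000 CPM, 42 in smooth muscle-like cells, 1 in cluster 1 and 1 without fibroblast-like clusters. For smooth muscle-like against fibroblast-like cells the 871 calls became 3023 with DESeq2, 509 with classes set by marker levels, 244 with cluster 10 only and 351 to 961 on leaving out a mouse, lowest without mouse 2. The 300 calls against pericyte-like cells became 1182 with DESeq2, 591 without the filter, 180 with sums of at least 4 cells, 125 with classes set by marker levels and 174 with cluster 1 only. The 483 calls of pericyte-like against fibroblast-like cells became 1464 with DESeq2 and 801 without the filter. Without the mouse block the 4 comparisons, in that order, gave 7, 1335, 107 and 205 calls, and beside the Atp2a2 call named above the block's removal changed the sign of Itpr2 in uncalled results.

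Of the members' changes under alternatives, 370 kept their direction and side of the threshold, 18 lost and 11 gained a call, 8 untested values moved and 27 changed sign, none of these called. Shares of cells with a count moved by more than the SD between mice in 46 cases and by less in 34, and mean levels in 3 and 37 cases. Pln turned to -0.47 in cluster 1 on the Rgs5 split, where Itpr2 turned to 0.56 without the block, 3.18 without mouse 1 (-5.23 without mouse 2), 0.51 without cells high in cardiomyocyte markers and 1.52 at Myh11 500 CPM. Against fibroblast-like cells Casq1 turned to -0.93 and -0.30 without mouse 1 and 2 (1.30 without mouse 3), -3.31 without cells high in cardiomyocyte markers, -0.88 with marker classes and -3.49 with cluster 1. Against pericyte-like cells Casq2 turned to 0.26 with cluster 1, Atp2a3 to -0.97 with cluster 10, and Itpr2 to -0.55 without the block, -2.73 without mouse 2 (3.70 without mouse 1), -2.73 with the stricter cell filter, -2.68 without cells high in cardiomyocyte markers, -0.94 with at least 4 cells and -1.58 with cluster 1. In pericyte-like against fibroblast-like cells Ryr2 turned to -0.86, -0.84, -2.23 and -0.25 without mouse 2 (1.49 without mouse 1), with the stricter filter, without cells high in cardiomyocyte markers and with at least 4 cells, Atp2a2 to -0.17 and -0.23 under the first 2 of these (0.50 without mouse 1) and Itpr1 to 0.35, 0.37 and 0.45 under the first 3 (-4.16 without mouse 1). The cause was not tested. Comparisons of 2 mice gave values without a test when a mouse was left out, and the 2 comparisons with pericyte-like cells gave values without a test under the stricter filter and without cells high in cardiomyocyte markers, since 1 mouse then qualified. Splits by cluster and the subset without fibroblast-like clusters were chosen after seeing the data. At these depths members under about 10 CPM rest on few counts. Ryr2, Ryr3 and Casq1 had a count in 213, 4 and 37 cells.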
